A study of Mus musculus with 11 samples.

Results

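The integrated stress response and the unfolded protein response were followed here through 37 genes. They are a list of ATF4 targets and endoplasmic reticulum (ER) folding genes, taken by symbol. The list was chosen with earlier results of these data known. All 37 symbols were found among the 55487 gene identifiers of the deposited expression table, and they were read in all 11 libraries. By role they fall into 3 sensors, 5 transcription factors, 9 genes of amino acid and one-carbon metabolism (the amino acid arm), 3 feedback and effector genes, 13 ER chaperones and folding enzymes (the chaperone arm) and 4 genes of ER-associated degradation. RNA was sequenced from whole spinal cord and from cultured fetal fibroblasts (MEF) of C57BL/6 mice. One genotype was wild-type and the other Morc2a p.S87L heterozygote, in which 1 allele of the chromatin ATPase MORC2A has leucine in place of serine and the other is wild-type. There were 3 wild-type and 3 S87L cord libraries, and 3 wild-type and 2 S87L MEF libraries. Age, sex, passage and litter were not given in the labels, and the labels leave unsaid whether replicate libraries are separate animals or cultures. The p-values therefore measure only the spread among these libraries, which can be technical.

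When unfolded proteins collect in the ER, membrane sensors start the unfolded protein response, whose factors ATF6 and XBP1 switch on chaperones, disulfide isomerases and the machinery that sends misfolded proteins out for degradation. The sensor PERK also phosphorylates the translation factor eIF2alpha, as do kinases that sense amino acid shortage, viral RNA or heme loss. This integrated stress response slows translation in general but favours ATF4, which switches on amino acid uptake, serine and one-carbon enzymes and its own feedback inhibitors. Neurons, which maintain long processes with proteins made in the cell body, are among the cells in which both responses are much studied.

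The chaperone arm is known for the ER stress response element (ERSE), the half-sites CCAAT and CCACG with 9 bases between them, and the ATF4 targets for the C/EBP-ATF response element (CARE), here searched as TGATGNAA. Both were searched on both strands of RefSeq promoter windows, from 250 bases before to 50 after the start of each gene (GRCm38.p6). A window was at hand for 31 of the 37 genes. ERSE matched 6 of 11 chaperone arm genes (Hspa5, Hsp90b1, Calr, Creld2, Dnajc3 and Pdia6), 1 of 4 degradation genes (Syvn1) and 0 of 6 amino acid arm genes, against 0.119% of all 32851 promoter windows. The sites are shown because the genes that carry them lie mostly in the chaperone arm. They are written in the 5′ to 3′ sense of the motif, with the fixed motif letters in capitals.
Hspa5: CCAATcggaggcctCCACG
Hsp90b1: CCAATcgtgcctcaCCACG
Hsp90b1 second site: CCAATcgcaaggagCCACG
Calr: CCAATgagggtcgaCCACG
Creld2: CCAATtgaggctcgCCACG
Dnajc3: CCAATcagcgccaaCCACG
Pdia6: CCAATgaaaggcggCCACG
Syvn1: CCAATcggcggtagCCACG
The related ERSE-II, ATTGG and CCACG with 1 base between them, was found in Herpud1 and Dnajb11, against 0.0365% of all windows.
Herpud1: ATTGGgCCACG
Dnajb11: ATTGGcCCACG
CARE matched Asns, Atf3, Chac1, Herpud1, Nupr1 and Trib3, against 3.97% of all windows. It matched 0 of 11 chaperone arm genes and 1 of 6 amino acid arm genes. The XBP1 element core TGACGTGG matched 0 of the 31 genes and 0.676% of all windows. ERSE was first described on genes of this kind, so its matches are a description of the list and not a result on binding.

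The whole 250 bases before the start are given for 4 genes that stand for the different combinations, with the motif letters in capitals. Hspa5 (chr2:34771840-34772089, plus strand) encodes BiP, the main ER chaperone, and its ERSE begins 65 bases before the start.
Hspa5: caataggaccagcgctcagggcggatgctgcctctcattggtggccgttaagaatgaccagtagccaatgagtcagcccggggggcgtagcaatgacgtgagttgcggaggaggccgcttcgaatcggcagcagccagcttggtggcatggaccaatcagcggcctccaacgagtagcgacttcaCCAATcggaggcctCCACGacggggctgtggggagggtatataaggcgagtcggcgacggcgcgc
Creld2 (chr15:88819396-88819645, plus strand) encodes an ER folding protein, and its ERSE lies on the other strand 126 bases before the start, so that the capitals read as the reverse complement.
Creld2: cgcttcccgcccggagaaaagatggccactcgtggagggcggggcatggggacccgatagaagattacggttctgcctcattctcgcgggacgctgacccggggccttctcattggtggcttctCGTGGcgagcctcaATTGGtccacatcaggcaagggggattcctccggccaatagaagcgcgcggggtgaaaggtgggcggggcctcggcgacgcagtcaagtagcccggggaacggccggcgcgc
Herpud1 (chr8:94386179-94386428, plus strand) encodes a membrane protein of ER-associated degradation. It is the 1 gene of the list with both a CARE, 112 bases before the start and on the other strand, and an ERSE-II, 52 bases before it. The sites do not overlap.
Herpud1: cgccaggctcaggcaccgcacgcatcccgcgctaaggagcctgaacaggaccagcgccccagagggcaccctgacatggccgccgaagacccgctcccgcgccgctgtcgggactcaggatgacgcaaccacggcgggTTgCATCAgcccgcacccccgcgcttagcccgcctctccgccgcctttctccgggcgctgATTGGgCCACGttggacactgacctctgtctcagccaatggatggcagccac
Asns (chr6:7693210-7693459, minus strand) encodes asparagine synthetase, a classical ATF4 target, and its CARE begins 23 bases before the start.
Asns: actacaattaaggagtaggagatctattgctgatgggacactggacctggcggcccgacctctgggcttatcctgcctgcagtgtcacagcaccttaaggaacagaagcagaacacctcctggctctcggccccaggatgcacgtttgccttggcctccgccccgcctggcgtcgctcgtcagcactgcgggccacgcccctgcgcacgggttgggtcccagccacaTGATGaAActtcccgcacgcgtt

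Expression is given as FPKM, reads scaled by gene length and by a read total of the library, so levels of different genes can be compared per length. That total, recovered as 11.48 to 22.72 M, lay nearer the protein-coding reads (11.45 to 22.65 M) than all recovered reads in each library. Differences are log2 fold changes of FPKM + 0.5 with the standard error (SE) from limma, S87L minus wild-type, and a gene was called when its Benjamini-Hochberg adjusted p over all tested genes was under 0.05. Depth, as reads recovered from the FPKM steps, was 15.35 to 18.97 M in wild-type and 19.4 to 23.53 M in S87L cord, and 12.08 to 15.05 M in MEF, so the S87L cord libraries were all deeper than the wild-type ones. Morc2a was lower in S87L in both tissues, 5.66 ± 0.0479 against 4.86 ± 0.132 FPKM in cord and 18.6 ± 0.251 against 16.4 ± 0.0071 in MEF (SD, n = 3 per group, 2 for S87L MEF), a total that does not separate the alleles. Both differences passed (limma adjusted p = 0.0269 and 0.0421), but in cord the removal of any 1 library except wild-type replicate 1 ended the call, and in MEF the removal of any 1 library did. Summed markers of neurons reached 1117 to 1149 FPKM in cord and 6.97 to 9.56 in MEF, and summed fibroblast markers 222 to 234 in cord and 4504 to 4827 in MEF, as the tissue labels say. Most of the cord fibroblast sum was Thy1, at 167 to 186 FPKM in each cord library.

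In spinal cord, 19 of the 36 genes tested were higher in S87L and 0 were lower, and the difference lay mainly in the chaperone arm. Of all 15648 genes tested, 12.9% were called, 5.17% higher and 7.71% lower. The median log2 difference of the 36 genes was 0.16, against -0.02 over all genes tested. The 3 S87L libraries lay wholly above the 3 wild-type libraries for 23 genes and wholly below for 0, against 13.8% and 21.3% of all genes. As the list was chosen with earlier results known, these counts describe it and do not test it. By role, calls were 0 of 3 sensors, 2 of 5 transcription factors, 4 of 9 amino acid arm genes, 0 of 2 feedback genes, 12 of 13 chaperone arm genes and 1 of 4 degradation genes. In whole cord, more cells of a type with high levels and more RNA per cell cannot be told apart. The calls depended on single libraries. Removing S87L cord replicate 2 left 10 genes called, removing S87L replicate 1 or wild-type replicate 3 left 11, removing wild-type replicate 2 left 14, removing S87L replicate 3 left 15, and removing wild-type replicate 1 gave 18.

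**Figure D1:**
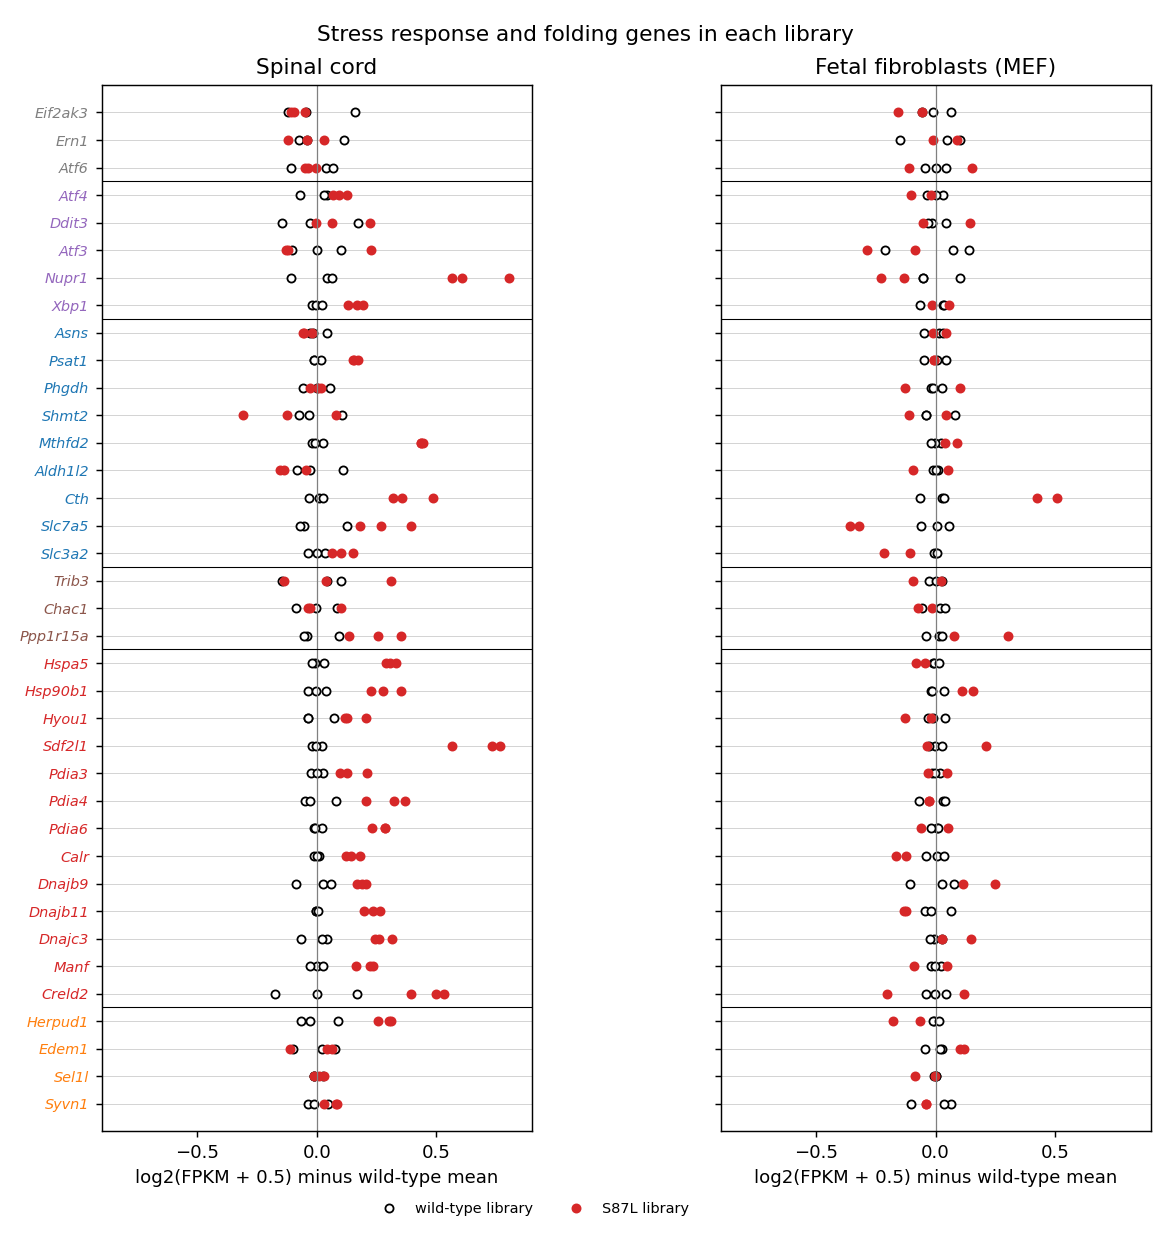
Each row is 1 of the 37 genes, and each point is 1 library, placed by its log2(FPKM + 0.5) minus the wild-type mean of that tissue (open circles wild-type, filled circles S87L). Horizontal lines separate the roles, from sensors at the top to ER-associated degradation at the bottom. In cord the S87L points of all 13 chaperone arm genes lie right of the wild-type points, while in MEF 2 chaperone arm genes lie wholly higher and 3 wholly lower.

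The sensors did not pass the test in cord. Eif2ak3, which encodes PERK, had 5.61, 6.92 and 5.94 FPKM in the wild-type libraries and 5.66, 5.71 and 5.91 in S87L cord. Ern1, the kinase and nuclease IRE1 that splices Xbp1 mRNA, ranged from 1.71 to 2.1 FPKM over the 6 libraries, and Atf6, a factor released from the membrane by cleavage, from 6.76 to 7.72. The groups overlapped for each, with log2 differences of -0.08, -0.04 and -0.03 (SE 0.07, 0.08 and 0.06). The sensors act through phosphorylation, cleavage and splicing, which the FPKM values do not measure.

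Among the transcription factors, Nupr1 and Xbp1 rose. Nupr1, a small stress-induced chromatin protein (chromosome 7, 126623249 to 126630861, GRCm38, minus strand), was at 2.59, 2.63 and 2.28 FPKM in wild-type and 3.94, 4.73 and 4.07 in S87L cord. All 3 S87L libraries lay above all wild-type ones, with a difference of 0.66 (SE 0.08, limma adjusted p = 0.00346). The call held without any 1 library, with a highest adjusted p of 0.0156. Xbp1, whose spliced form encodes the active factor, went from 24.3 ± 0.332 to 27.3 ± 0.573 FPKM (SD, n = 3 each), a difference of 0.17 (SE 0.03, adjusted p = 0.0226). The table has 1 value for the gene, so its splice forms are not separated. The call for Xbp1 was lost without any 1 library except wild-type replicate 1, with an adjusted p of up to 0.078.

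Atf4 itself did not pass. It stood at 35.2, 32.5 and 34.9 FPKM in wild-type and 37.4, 36.5 and 35.9 in S87L cord, groups that did not overlap, with a difference of 0.10 (SE 0.04, adjusted p = 0.174). ATF4 is regulated mainly at translation, which was not measured. Ddit3, which encodes the pro-apoptotic factor CHOP, was at 10.6, 8.4 and 9.17 FPKM against 11, 9.79 and 9.32, and the groups overlapped (0.09, SE 0.09). Its exons share 68 bases with Mars on the other strand, and the sources used here do not give whether counting used the strand. They also share 105 bases with another gene entry named Ddit3 on the same strand, which was at 0 FPKM in both tissues and was not used. Atf3, an early stress factor, was near the lower end of the test at 0.646 to 0.967 FPKM, with a difference of -0.01 (SE 0.13).

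The amino acid arm was divided. Mthfd2, a mitochondrial folate enzyme (chromosome 6, 83305691 to 83325908, minus strand), was at 11.7, 11.3 and 11.4 FPKM in wild-type and 15.8, 15.7 and 15.7 in S87L cord. The S87L values were nearly equal to each other and all above the wild-type values, with a difference of 0.43 (SE 0.04, adjusted p = 7.79e-04). Cth, cystathionine gamma-lyase, which makes cysteine, rose from 1.23, 1.28 and 1.3 to 1.71, 1.77 and 1.98 FPKM (0.39, SE 0.07, adjusted p = 0.0169). These values rest on few reads, 53 to 62 per wild-type and 94 to 112 per S87L library, and the call was lost without S87L replicate 2 or 3 (adjusted p up to 0.0605).

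Slc7a5, the light chain of a large neutral amino acid transporter, was at 17.5, 15.4 and 15.2 FPKM in wild-type and 21.2, 19.4 and 18.2 in S87L cord. Each S87L library was above each wild-type library, and the difference of 0.28 (SE 0.07) passed narrowly at an adjusted p of 0.0456. It was lost without S87L replicate 1 or 2 or wild-type replicate 2 or 3, with an adjusted p of up to 0.132. Its partner chain Slc3a2 had a difference of 0.11 (SE 0.04), also without overlap, and missed the threshold (adjusted p = 0.12). Psat1, a serine synthesis enzyme, rose from 67.9 ± 0.843 to 75.9 ± 0.612 FPKM (0.16, SE 0.03, adjusted p = 0.014), a call lost without S87L replicate 1 or 2 or wild-type replicate 3 (adjusted p up to 0.0663).

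The other 4 amino acid arm genes showed no rise. Asns was at 37.3, 38.9 and 37 FPKM in wild-type and 37.2, 36.3 and 36.2 in S87L cord (-0.04, SE 0.03). Phgdh, the first enzyme of serine synthesis, stood at 52.3 ± 2.04 and 52.3 ± 0.811 FPKM (0.00, SE 0.04). Shmt2, which splits serine in mitochondria, had a difference of -0.12 (SE 0.10) and Aldh1l2, a mitochondrial folate enzyme, of -0.11 (SE 0.07). The groups overlapped for all 4. Aldh1l2 shares 1056 exon bases with D10Wsu102e on the other strand, so its low cord level of 2.4 to 2.98 FPKM is uncertain. Leaving out S87L replicate 2 left 1 of the 9 genes called, and leaving out S87L replicate 1 or wild-type replicate 3 left 2.

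The feedback genes did not pass in cord. Trib3, a pseudokinase that binds and restrains ATF4, was at 0.286, 0.254 and 0.161 FPKM in wild-type and 0.407, 0.166 and 0.252 in S87L cord, or 5 to 17 reads, and was not tested. Chac1, which degrades glutathione, ranged from 3.17 to 3.68 FPKM with overlapping groups (0.02, SE 0.07). Ppp1r15a, the phosphatase subunit that reverses eIF2alpha phosphorylation, was at 3.87, 3.48 and 3.44 FPKM in wild-type and 4.72, 4.39 and 3.99 in S87L. Its groups did not overlap, and its difference of 0.25 (SE 0.07) missed the threshold at an adjusted p of 0.0671.

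All 13 chaperone arm genes were higher in each S87L than in each wild-type cord library, and 12 passed the test. Their median difference was 0.27, with a range of 0.15 to 0.69. Hspa5 (chromosome 2, 34771970 to 34777547, plus strand) was at 115, 112 and 111 FPKM in wild-type and 138, 139.6 and 142 in S87L cord. The wild-type values were close to each other and all below the S87L values, a difference of 0.31 (SE 0.03, adjusted p = 0.00122). Hsp90b1, its HSP90-class partner, was at 106, 100.5 and 103 FPKM against 121, 125 and 132 (0.29, SE 0.04, adjusted p = 0.00584).

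Sdf2l1 had the largest difference of the chaperone arm. It encodes an ER protein that works with the J-protein DNAJB11 and Hspa5 (chromosome 16, 17130138 to 17132383, minus strand). Its level was 17.5, 18 and 17.7 FPKM in wild-type and 29.8, 30.5 and 26.5 in S87L cord, a fold of 1.61 (0.69, SE 0.06, adjusted p = 7.47e-04). Creld2 was second in the arm, from 14.2, 12.6 and 11.1 to 18, 18.4 and 16.7 FPKM (0.47, SE 0.09, adjusted p = 0.0144). The wild-type values of Creld2 were spread widely, and its call was lost without S87L replicate 1 or 2 (adjusted p up to 0.0582). The promoter window of Sdf2l1 had no match to any of the searched motifs. In the same arm, Hspa5, Hsp90b1, Calr, Creld2, Dnajc3 and Pdia6, with an ERSE, and Dnajb11, with an ERSE-II, passed in cord. Sdf2l1, Dnajb9, Pdia3 and Pdia4, whose windows had no match, passed too. A part of the motifs in these differences was not tested.

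Among the J-proteins, which hand clients to BiP, Dnajb11 was at 16.3, 16.3 and 16.4 FPKM in wild-type and 19.3, 19.7 and 18.8 in S87L cord (0.23, SE 0.04, adjusted p = 0.00787). Dnajc3, which also inhibits PERK, was at 26.6, 28.7 and 28.3 FPKM against 33.1, 33.5 and 34.8 (0.27, SE 0.04, adjusted p = 0.00831). Dnajb9, a BiP cofactor that represses IRE1, was at 25.2, 23.3 and 25.8 FPKM against 28.6, 27.9 and 28.3 (0.19, SE 0.05, adjusted p = 0.0366). All 3 rose, but the removal of any 1 of the 6 libraries ended the call for Dnajb9, with an adjusted p of up to 0.115.

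The disulfide isomerases rose by different amounts. Pdia6 was at 33.3, 32.5 and 32.6 FPKM in wild-type and 38.6, 40.1 and 40.1 in S87L cord (0.27, SE 0.03, adjusted p = 0.00357). Pdia4 was at 33.1, 36.3 and 33.6 FPKM against 39.7, 43.1 and 44.5 (0.30, SE 0.06, adjusted p = 0.0145), a call lost without S87L replicate 2 or wild-type replicate 3. Pdia3, the glycoprotein isomerase, had a smaller difference of 0.15 (SE 0.04, adjusted p = 0.0456), and the removal of any 1 library ended its call (adjusted p up to 0.122). Calr, the lectin chaperone that works with Pdia3, went from 134 ± 0.706 to 149 ± 3.1 FPKM (0.15, SE 0.03, adjusted p = 0.0169), lost without S87L replicate 1 or 2 or wild-type replicate 2 or 3.

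Manf, a secreted ER protein with neurotrophic activity, was at 18.9, 19.2 and 18.5 FPKM in wild-type and 22.1, 21.2 and 22.3 in S87L cord (0.21, SE 0.04, adjusted p = 0.0142), and lost its call without S87L replicate 1 or wild-type replicate 3. Part of its exons, 146 bases, is shared with Dcaf1 on the other strand. Hyou1, a large ER chaperone, was the 1 gene of the arm that missed the threshold, at 17.7, 16.4 and 16.4 FPKM against 19.5, 18.4 and 18.3 (0.15, SE 0.05, adjusted p = 0.0746). Without S87L replicate 1, S87L replicate 2 or wild-type replicate 3, 7 of the 13 genes passed. Hspa5, Hsp90b1, Sdf2l1, Pdia6, Dnajb11 and Dnajc3 passed without any 1 library.

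Of the degradation genes, Herpud1 alone passed. It was at 33, 29.6 and 30.4 FPKM in wild-type and 38.3, 38.5 and 37.1 in S87L cord (0.29, SE 0.05, adjusted p = 0.00997). Each S87L value lay above each wild-type value. Sel1l and Syvn1, the adaptor and the ubiquitin ligase of the same membrane complex, and Edem1, a lectin that picks out misfolded glycoproteins, had differences of 0.01 (SE 0.03), 0.07 (SE 0.04) and 0.00 (SE 0.07), with overlapping groups. Syvn1 carries an exact ERSE in its window and did not pass, while Herpud1 carries an ERSE-II and a CARE and passed.

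**Figure D2:**
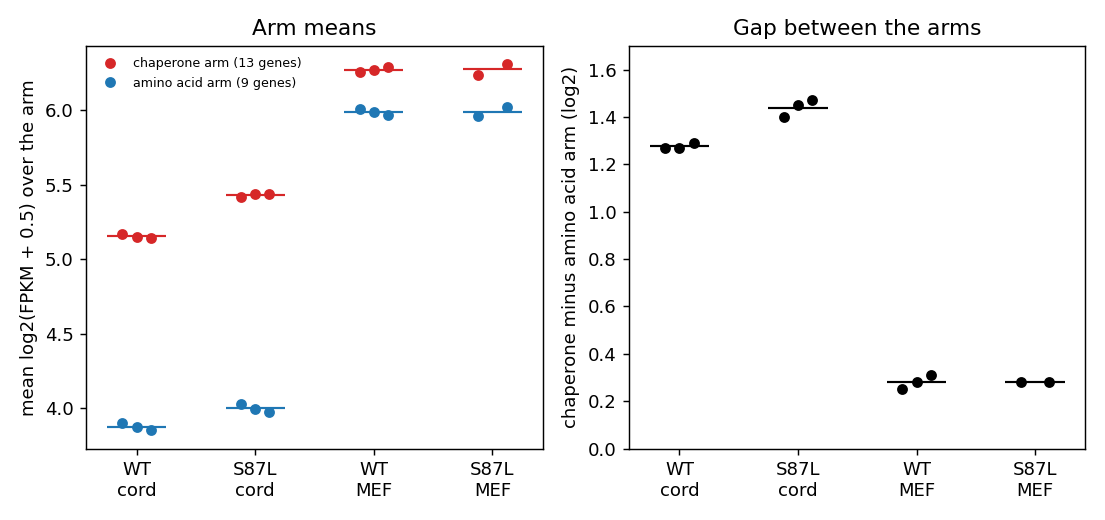
Left, the mean log2(FPKM + 0.5) over the 13 chaperone arm and the 9 amino acid arm genes in each library (points) with the group mean (lines); right, the chaperone mean minus the amino acid mean in the same libraries. In cord the gap between the arms was 1.27 to 1.29 in wild-type and 1.40 to 1.47 in S87L, and in MEF it was 0.25 to 0.31 in wild-type and 0.28 in both S87L libraries.

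Set side by side, the chaperone arm moved further than the amino acid arm in cord. The mean log2(FPKM + 0.5) of the 13 chaperone arm genes was 5.17, 5.15 and 5.14 in the wild-type libraries and 5.42, 5.44 and 5.44 in S87L cord, a difference of 0.28. The mean of the 9 amino acid arm genes was 3.90, 3.87 and 3.85 against 4.03, 3.99 and 3.97, a difference of 0.12. Both arms were higher in every S87L than in every wild-type cord library, and the gap between them was wider in every S87L library. Summed over genes, the chaperone arm went from 628 to 641 FPKM in wild-type to 743 to 770.5 in S87L, and the amino acid arm from 223 to 230.2 to 239 to 247. These arm values describe chosen genes and were given no p-value.

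Other cell type and RNA markers moved with genotype in the same cord libraries. Of 13 skeletal muscle genes, 12 rose, and their summed level was 143 to 156 FPKM in wild-type and 215 to 222 in S87L. Most of that sum is Pvalb (125 to 136 FPKM in each cord library), the 1 that did not pass, and without it the sums were 18.3 to 23.5 against 83 to 89.8 FPKM. Myh2, at 0.104 to 0.191 FPKM in wild-type and 1.44 to 1.6 in S87L, met the minimum of 0.5 FPKM only through S87L. Tcap had 4 to 16 reads per wild-type library. On log2(FPKM + 0.5), Acta1, the muscle actin, changed most, from 3.96 ± 0.773 to 20.6 ± 1.19 FPKM (SD, n = 3 each). Of 9 tested meningeal and fibroblast genes, 7 rose, from a sum of 32.3 to 34.1 to a sum of 56.2 to 58.6 FPKM, and the matrix proteoglycan Dcn changed most (1.22). Of 11 microglia and macrophage genes, 7 rose (273 to 294 against 349 to 357 FPKM), led by Tyrobp (0.51), and 0 were called lower. Cx3cr1 of the same list lay lower without overlap (11.8, 11.7 and 11.3 against 10.5, 10.6 and 10.4 FPKM) and did not pass. Also higher were 3 of 6 tested red blood cell genes (337 to 373 against 410.0 to 449 FPKM), led by Hbb-bt (0.32). All 5 tested nuclear-retained noncoding RNAs fell, from a sum of 445 to 466 to a sum of 240.1 to 255 FPKM, and Meg3 changed most (-1.25). No gene of these lists was at 0 throughout a cord group. Of 6 astrocyte genes, 2 rose and 1 fell (sums of 1079 to 1141 against 1087 to 1110.4 FPKM), and the connexin Gjb6 changed most (0.43). The other calls, Slc1a3 higher and Gfap lower, were lost without any 1 S87L library and without any 1 of the 6 libraries, respectively. The part of these differences, and of the greater depth of the S87L libraries, in the chaperone and amino acid values was not tested.

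In MEF, 2 of the 37 genes passed, Cth higher and Slc7a5 lower, and none of the 13 chaperone arm genes did. Of all 13773 genes tested, 11.2% were called, 4.91% higher and 6.32% lower, so the 5.41% called among the 37 genes was not above the background. The median difference of the 37 genes was -0.02, against -0.01 over all genes. The groups did not overlap for 6 genes that were higher and 7 that were lower in S87L, against 20.8% and 25% of all genes.

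Cth was at 6.03, 6.47 and 6.51 FPKM in wild-type and 8.67 and 9.23 in S87L MEF (0.47, SE 0.06, adjusted p = 0.00634), and so was higher in S87L in both tissues. Slc7a5 was at 139, 134 and 128 FPKM against 104 and 107 (-0.34, SE 0.05, adjusted p = 0.00907), a direction opposite to that in cord. Slc3a2, the other chain of the transporter, was at 76.5, 75.9 and 76.6 FPKM against 65.7 and 70.9, and missed the threshold (-0.16, SE 0.04, adjusted p = 0.0667). The calls for Cth and Slc7a5 held without any 1 wild-type library. Both were lost when the replicate number was added to the fit as a block, which leaves few degrees of freedom in MEF. The other 6 genes of the arm, Asns, Psat1, Phgdh, Shmt2, Mthfd2 and Aldh1l2, had differences of -0.03 to 0.07.

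The chaperone arm differed little in MEF. Hspa5 was at 293, 294 and 298 FPKM in wild-type and 279 and 286 in S87L (-0.06, SE 0.03, adjusted p = 0.287), and both S87L values were lower. Sdf2l1 was at 18.2, 18.6 and 17.9 FPKM against 17.8 and 21.2 (0.09, SE 0.07), and Creld2 at 33.7, 32.9 and 34.8 against 29.3 and 36.7 (-0.04, SE 0.09), with overlap for both. The 2 S87L libraries were far apart for Sdf2l1 and Creld2, so differences of that size in MEF are poorly resolved.

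Differences over the arm ran from -0.14 (Calr, SE 0.04) to 0.18 (Dnajb9, SE 0.07). At an unadjusted limma p under 0.05, 4 of the 13 genes differed, Hsp90b1 (0.13) and Dnajb9 higher and Calr and Dnajb11 (-0.13) lower, beside 3849 of all 13773 genes, so the share was near the background. Hsp90b1 passed with median ratio scaling, and Hsp90b1 and Calr with the voom method on recovered reads. Hyou1, Pdia3, Pdia4, Pdia6, Dnajc3 and Manf lay between -0.07 and 0.08, with overlapping groups.

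The remaining genes did not pass in MEF. Nupr1 was at 27.3, 27.3 and 30.4 FPKM in wild-type and 24.1 and 25.8 in S87L MEF, lower without overlap (-0.18, SE 0.06, adjusted p = 0.125). Ppp1r15a was at 10.3, 10.4 and 9.9 FPKM against 10.8 and 12.7 (0.19, SE 0.07, adjusted p = 0.15), and Herpud1 at 41.6, 41.5 and 42.2 against 39.9 and 36.9 (-0.12, SE 0.04, adjusted p = 0.146). Atf3 had a difference of -0.19 (SE 0.12), Eif2ak3 of -0.11 (SE 0.06) and Edem1 of 0.11 (SE 0.04). Atf4, Ddit3, Xbp1, Ern1, Atf6, Trib3, Chac1, Sel1l and Syvn1 lay between -0.06 and 0.04. In S87L MEF, summed meningeal and fibroblast markers were lower (4067 to 4093 FPKM in wild-type, 3507 and 3767 in S87L), as were those of microglia and macrophages (276 to 282 against 233 and 243), and their part in these values was not tested.

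**Figure D3:**
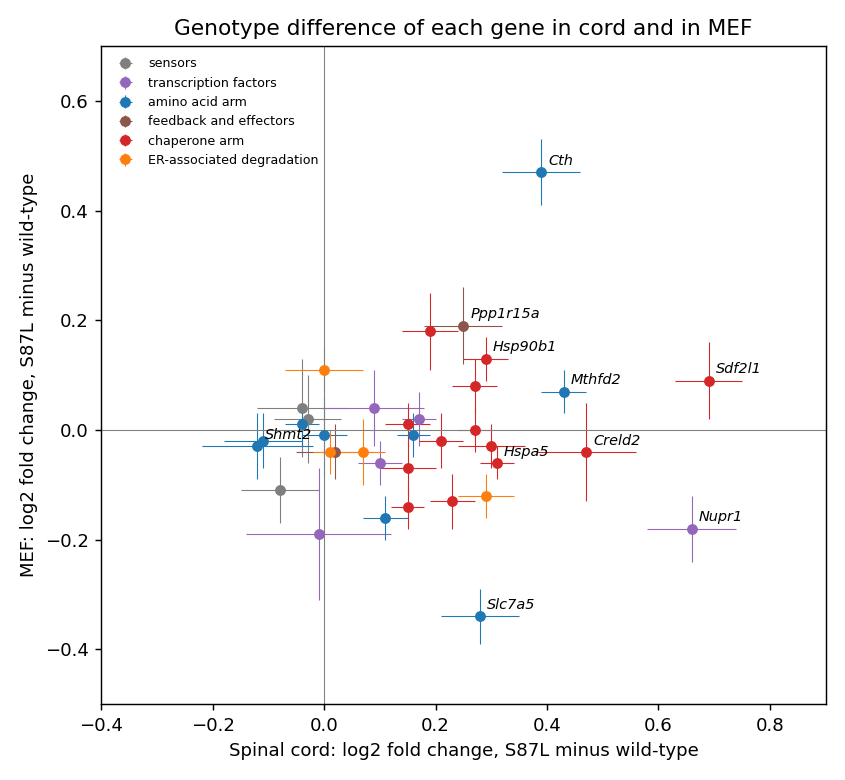
Each point is 1 gene tested in both tissues, with its log2 fold change in cord (horizontal) and in MEF (vertical), colours by role and bars of 1 SE. The chaperone arm lies right of 0 in cord, from 0.15 to 0.69, and around 0 in MEF, from -0.14 to 0.18, while Cth is high on both axes and Slc7a5 lies at 0.28 in cord and -0.34 in MEF.

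Whether the genotype difference itself differed between the tissues was tested as an interaction over all 11 libraries. It passed for 14 of the 37 genes, all with a lower value in MEF than in cord, where 13.1% of all 15811 genes passed, 6.98% lower and 6.14% higher. The 14 genes were 8 of 13 in the chaperone arm, 4 of 9 in the amino acid arm, Nupr1 and Herpud1. Nupr1 had -0.84 (SE 0.11, limma adjusted p = 0.00101). Hspa5 had -0.38 (SE 0.04, adjusted p = 2.97e-04), Sdf2l1 -0.60 (SE 0.10, adjusted p = 0.0033) and Slc7a5 -0.62 (SE 0.10, adjusted p = 0.00252). Cth, raised in both tissues, had 0.08 (SE 0.09). Removing 1 library ended the call for Psat1 in 8 cases (all but wild-type cord replicates 1 and 2 and wild-type MEF replicate 3). It did so for Manf in 8 (all but S87L MEF replicate 2, S87L cord replicate 2 and wild-type cord replicate 1) and for Creld2 in 8 (all but S87L MEF replicate 2, S87L cord replicate 3 and wild-type cord replicate 1). The calls for Slc3a2 and Pdia4 were lost without S87L MEF replicate 1, which left 2 of the 9 amino acid arm genes. For Dnajb9, Hsp90b1, Hyou1, Pdia3 and Dnajc3 the interaction did not pass, with values from -0.22 to -0.01, so a difference between the tissues is not shown for these. The interaction did pass for Hyou1 with median ratio scaling, quantile normalization and voom and without wild-type cord replicate 1 or S87L MEF replicate 2, for Hsp90b1 with voom, and for Dnajc3 without S87L MEF replicate 1.

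**Figure D4:**
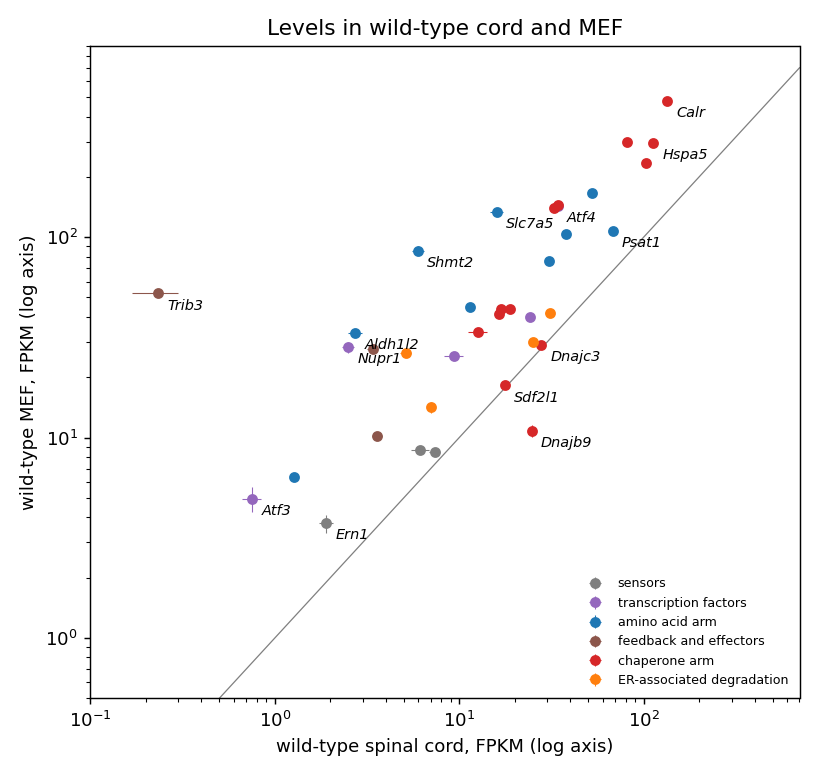
Mean FPKM of each of the 37 genes in wild-type cord (horizontal, log axis) and wild-type MEF (vertical, log axis), with bars of 1 SD over 3 libraries and the line of equal level. All but 1 of the genes lie on or above the line, Trib3 furthest at 0.234 against 52.4 FPKM, and Dnajb9 lies below it.

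For most of these genes, the starting levels differed more between the tissues than between genotypes. Sdf2l1 and Dnajc3 were exceptions, with 0.04 and 0.05 between the tissues and 0.69 and 0.27 between genotypes in cord. In wild-type libraries, the same that serve as controls above, 34 of the 37 genes were higher in MEF than in cord, 1 was lower (Dnajb9) and 2 did not pass (Sdf2l1 and Dnajc3). Of all 15962 genes tested, 87.6% were called, 40.3% higher and 47.4% lower. The median difference of the 37 genes was 1.39, against -0.12 over all genes. That all-gene median shifted to 0.15 with quantile normalization.

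Trib3 was the extreme case, at 0.286, 0.254 and 0.161 FPKM in wild-type cord and 53.4, 51.4 and 52.4 in wild-type MEF (6.18, SE 0.07). Its cord level lay under the minimum of 0.5 FPKM, so it entered this fit only through MEF. Its direction there was thus set by the filter, and the added 0.5 FPKM understates its difference. Chac1 was at 3.4 against 27.7 FPKM (2.86, SE 0.06) and Nupr1 at 2.5 against 28.4 (3.26, SE 0.07). In the amino acid arm, Shmt2 (3.73, SE 0.06), Aldh1l2 (3.39, SE 0.06) and Slc7a5 (3.02, SE 0.06) stood far above cord, and Psat1 least (0.66, SE 0.03). Atf4 was at 34.2 ± 1.49 FPKM in cord and 144 ± 3.23 in MEF (SD, n = 3 each). All 9 amino acid arm genes were higher in MEF, with a median of 1.91.

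The chaperone arm was higher in MEF for 10 of its 13 genes, with a median of 1.36. Pdia6 (2.08), Pdia4 (2.07) and Pdia3 (1.87) differed most, and Calr, at 481 ± 13.4 FPKM against 134 ± 0.706 in cord, was the most abundant gene of the list in both tissues. Dnajb9 was at 25.2, 23.3 and 25.8 FPKM in cord and 11.4, 11 and 9.99 in MEF (-1.16, SE 0.06). Sdf2l1 was at 17.7 ± 0.254 and 18.2 ± 0.352 FPKM (0.04, SE 0.03) and Dnajc3 at 27.9 ± 1.12 and 28.9 ± 0.522 (0.05, SE 0.04), and both were called with median ratio scaling. The gap between the arms in the plot of arm means was therefore near 1.28 in wild-type cord and 0.28 in wild-type MEF. Of the sensors, Ern1 (0.82), Eif2ak3 (0.47) and Atf6 (0.19) were higher in MEF, and the call for Atf6 was lost without wild-type MEF replicate 2 (adjusted p = 0.0531).

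Other genes of the same pathways, 94 on a list of eIF2 regulators, further ATF4 targets, aminoacyl-tRNA synthetases and ER genes, did not share one direction in cord. Of 91 tested, 10 rose and 7 fell, with a median of 0.01. The calls included Gpt2, an alanine aminotransferase, at 18.6, 18.7 and 18.4 FPKM in wild-type and 24.4, 24.8 and 25.8 in S87L cord (0.42, SE 0.04, adjusted p = 9.17e-04). Ddit4, an inhibitor of mTOR signalling, was at 48.1, 45.3 and 43.5 FPKM against 79.6, 84.7 and 70.6 (0.77, SE 0.07, adjusted p = 0.00108). Both were clearly separated by genotype, as was the amino acid transporter Slc38a2 (42.1 to 53.5 FPKM, 0.34, SE 0.04).

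Bcat1, a branched-chain aminotransferase (0.21, SE 0.04), and Sec24d, a coat protein of vesicles leaving the ER (0.29, SE 0.06), also rose. The call for Bcat1 was lost without S87L replicate 2 or wild-type replicate 3, and that for Sec24d without any 1 library except wild-type replicate 1. Among the falls, Slc1a4, a neutral amino acid transporter, went from 16.9 to 13.9 FPKM (-0.27, SE 0.04), Cars, the cysteinyl-tRNA synthetase, from 5.35 to 4.37 (-0.26, SE 0.05) and the folate enzyme Mthfd1l from 4.49 to 3.4 (-0.36, SE 0.07), the last lost without wild-type replicate 2. By group, 4 of 8 ATF4 partners and secreted or growth targets rose and 0 fell, 3 of 14 amino acid and one-carbon genes rose and 4 fell, and 0 of 13 cytosolic aminoacyl-tRNA synthetases rose and 3 fell. Over all genes 5.17% were called higher and 7.71% lower, and differences between these small groups were not tested. Of further ER genes, 1 of 15 in folding and oxidation, 1 of 16 in entry and traffic and 1 of 15 in degradation and processing rose, and 0 fell. The count of 17 calls went to 6 when wild-type replicate 3 was removed, 7 when S87L replicate 2 was, and 9 when S87L replicate 1 or 3 or wild-type replicate 2 was.

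**Figure D5:**
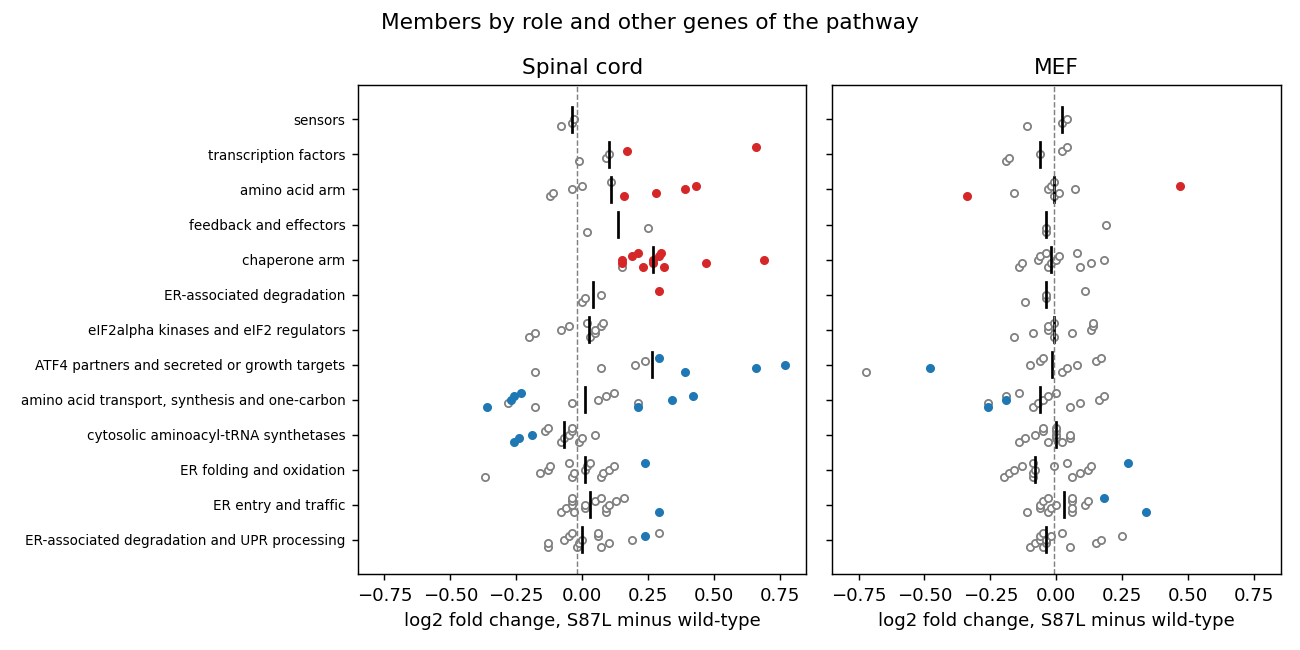
Log2 fold changes in cord (left) and MEF (right) of the 37 genes by role (top 6 rows) and of the other pathway genes by group (lower 7 rows). Each circle is 1 tested gene, filled when it passed the test (red for the 37 genes, blue for others), bars mark the row median and the dashed line the median of all genes tested. In cord the chaperone row sits at a median of 0.27, and the row of other ER folding genes at 0.01.

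In MEF, 3 of 92 tested pathway genes rose and 3 fell, with a median of -0.02. Their share of 6.52% was below the 11.2% of all genes. Spcs3, a signal peptidase subunit, was at 35.9, 36.7 and 36.8 FPKM in wild-type and 48.1 and 44.3 in S87L (0.34, SE 0.05, adjusted p = 0.00944). Ssr3, a subunit of the translocon-associated complex (0.18, SE 0.04), and Ero1l, the ER oxidase (0.27, SE 0.06), also rose. Slc1a5, a glutamine transporter, fell from 28.5 to 23.7 FPKM (-0.26, SE 0.05), Pck2, a mitochondrial ATF4 target, from 37.9 to 33.2 (-0.19, SE 0.04) and Gdf15, a secreted stress hormone, from 2.26 to 1.48 (-0.48, SE 0.10). Pycr1, of proline synthesis (-0.26, SE 0.07), and Fgf21, a secreted stress hormone (-0.72, SE 0.19), missed the threshold. Gdf15 lost its call without any 1 library, Ssr3, Pck2 and Ero1l without S87L replicate 1 or any wild-type library, and Slc1a5 without S87L replicate 1 or wild-type replicate 1 or 2. The count of 6 fell to 1 without wild-type MEF replicate 1 or 2 and to 3 without wild-type replicate 3 or S87L replicate 1, and rose to 14 without S87L replicate 2. The interaction passed for 11 of 94 pathway genes, 3 higher and 8 lower in MEF, a share of 11.7% that was not above the 13.1% of all genes, and Ddit4 (-0.60, SE 0.09) and Gpt2 (-0.37, SE 0.05) were among the lower. That count was 5 without S87L cord replicate 2 or wild-type MEF replicate 2, and 6 without replicate 1 of S87L MEF or S87L cord or replicate 3 of wild-type MEF or wild-type cord.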

How the data were processed

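RNA was measured in 6 spinal cord and 5 MEF libraries. The authors deposited FPKM values per Ensembl gene. The submitters' processing notes name HISAT2 2.2.1, HTSeq 0.11.3, Picard 2.25.5, Trimmomatic 0.39 and the build GRCm38. The sources used here do not give the role of each tool, the annotation release or the strand setting. Per the labels' protocols, TRIzol RNA went into the NEBNext Ultra II Directional kit. Symbols came from the GENCODE annotation of GRCm38, which held 55227 of the 55487 identifiers, and promoter sequences from RefSeq (GRCm38.p6).

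FPKM values move in steps of 1 read, and 98.51% to 98.6% of values per library came out as whole reads (within 0.05). Each library was taken as 1 replicate. Pairs of libraries of 1 group differed beyond counting noise (chi-square per degree of freedom 1.25 to 4.58). Such noise does not tell separate animals or cultures from repeated library preparation. Genes with a mean of 0.5 FPKM or more in a fit were tested on log2(FPKM + 0.5), which understates changes of low genes. The test was limma 3.58.1 (R 4.3.3, eBayes with trend and robust). It was also run on simulated data with independent noise per gene, which hold no deviations shared by the genes of a library. Each tissue was fitted alone, the interaction over all 11 libraries, and the tissue difference over wild-type libraries. The 37 genes and the other lists were chosen with earlier results of these data known. Named were all 37 genes, Morc2a, the 8 other pathway genes with the smallest p per genotype fit, and the marker with the largest change on log2(FPKM + 0.5) in marker lists that moved. Some marker lists are not reported here. Alternatives were pseudocounts of 0.1 and 1, no filter or a minimum mean of 1 FPKM, median ratio scaling, quantile normalization, a replicate block and each library left out; voom on the recovered reads was added after seeing the data.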

Additional observations from a re-analysis of the deposited data

Results flagged for a closer look

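The genotype difference differed between the tissues, by the interaction test over all 11 libraries, for 14 of the 37 genes. The values are log2 differences in MEF minus those in cord. In the chaperone arm they were -0.60 for Sdf2l1, -0.51 for Creld2, -0.38 for Hspa5, -0.36 for Dnajb11, -0.33 for Pdia4, -0.30 for Calr, -0.27 for Pdia6 and -0.23 for Manf. In the amino acid arm they were -0.62 for Slc7a5, -0.37 for Mthfd2, -0.27 for Slc3a2 and -0.17 for Psat1. Nupr1 had -0.84 and Herpud1 -0.41. In each case the difference was above 0 in cord. In MEF it was below 0 for Nupr1, Slc7a5, Slc3a2, Hspa5, Calr, Dnajb11 and Herpud1 without overlap of the groups, though of these Slc7a5 alone passed the test there.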

How the results depend on the processing

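Of the 19 cord calls, 19 were kept with either pseudocount, the stricter filter, median ratio scaling and voom, 18 with the replicate block (Pdia3 lost), and 16 with no filter (Dnajb9, Pdia3 and Slc7a5 lost) and with quantile normalization (Pdia3, Psat1 and Xbp1 lost). Hyou1 passed with median ratio scaling and voom, and Ppp1r15a with these, quantile normalization and the block. In cord, leaving out 1 library gave 838 to 1637 genes called, 10 to 18 of the listed genes, 1 to 4 of the amino acid arm, 7 to 11 of the chaperone arm and 6 to 13 other pathway genes.

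Whether replicate numbers pair the samples could not be decided. In cord, same-numbered libraries correlated at 0.15, -0.05 and 0.11 and differently numbered ones at -0.20 to 0.09. Not every library correlated best with its own number. In MEF, same-numbered libraries correlated at -0.07 and -0.03. With 2 S87L MEF libraries, the deviations from their mean mirror each other, so these values cannot decide the pairing. With the replicate block, MEF gave 182 genes called, 0 listed genes (Cth and Slc7a5 lost), 0 of the amino acid arm and 0 other pathway genes, and the interaction gave 1030 genes, 8 listed genes (Creld2, Manf, Pdia4, Pdia6, Psat1 and Slc3a2 lost), 2 of the amino acid arm, 4 of the chaperone arm and 3 other pathway genes. In MEF, no filter gave 788 genes and 1 other pathway gene, voom gave 2743 genes, 5 listed genes, 2 of the chaperone arm and 12 other pathway genes, and median ratio scaling 1 of the chaperone arm. Leaving out 1 library gave 565 to 1753 genes and 1 to 14 other pathway genes in MEF, and 1373 to 2261 genes, 2 to 4 of the amino acid arm and 5 to 14 other pathway genes for the interaction, where no filter gave 7 other pathway genes. Why these counts moved was not tested.

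Scaling moved the balance of directions over all genes: in cord 809 higher and 1207 lower became 1230 and 874 with median ratio scaling, in MEF 676 and 871 became 1526 and 1217 with voom, and for the interaction 971 and 1104 became 728 and 1485 with median ratio scaling.

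In cord, Sdf2l1 and Nupr1 differed by 0.70 and 0.74 with a pseudocount of 0.1, so their order depends on it. Several genes that did not pass changed sign, and no called gene did. In cord these were Ern1 (0.04 with quantile normalization), Atf6 (0.01 with median ratio scaling), Atf3 (0.02 and 0.10 with these), Phgdh (-0.04) and Sel1l (-0.02) with quantile normalization. In MEF they were Asns (-0.01 with the block), Psat1 (0.01 with both scalings, 0.00 with voom), Phgdh (0.01 with median ratio scaling), Pdia4 (0.00 with quantile normalization) and Pdia6 (0.02, 0.00 and 0.01 with median ratio, quantile and voom). For the interaction they were Phgdh (0.02), Cth (-0.11, and -0.03 with voom) and Dnajb9 (0.01) with quantile normalization. Leaving out 1 library in cord gave Ern1 -0.08 to 0.01, Atf6 -0.08 to 0.01, Atf3 -0.12 to 0.05, Phgdh -0.03 to 0.03, Chac1 -0.03 to 0.06, Edem1 -0.05 to 0.06 and Sel1l -0.00 to 0.02. In MEF it gave Ern1 -0.03 to 0.09, Atf6 -0.11 to 0.15, Ddit3 -0.05 to 0.14, Xbp1 -0.02 to 0.06, Asns -0.02 to 0.04, Psat1 -0.04 to 0.01, Phgdh -0.13 to 0.10, Shmt2 -0.11 to 0.04, Aldh1l2 -0.10 to 0.05, Trib3 -0.10 to 0.02, Sdf2l1 -0.04 to 0.21, Pdia3 -0.03 to 0.05, Pdia6 -0.06 to 0.05, Manf -0.09 to 0.05 and Creld2 -0.20 to 0.12. For the interaction it gave Eif2ak3 -0.10 to 0.04, Atf6 -0.08 to 0.18, Ddit3 -0.15 to 0.05, Phgdh -0.13 to 0.10, Shmt2 -0.01 to 0.18, Trib3 -0.21 to 0.01, Ppp1r15a -0.17 to 0.05 and Dnajb9 -0.07 to 0.06. Depth limits Trib3, Atf3 and Cth in cord most.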
